A study of Mus musculus with 24 samples.

Results

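CpG dyads, the pairs of cytosines that face each other across the 2 DNA strands at a CG, were examined in the mouse dentate gyrus. They were taken from the autosomal CpG cytosines of a reduced representation bisulfite sequencing (RRBS) table wherever a cytosine listed on the plus strand had a listed partner 1 bp further on the minus strand. This gave 57037 dyads, whose 114074 cytosines made up 17.0% of the 672847 autosomal CpG cytosines. The other 558773 autosomal cytosines were listed on 1 strand without a partner. A dyad had values on both strands in a median of 11 of the 24 mice. Both strands were measured in at least 12 mice at 23313 dyads, in at least 3 mice of each group at 27660 dyads, and in all 24 mice at 65 dyads.

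The table held percent methylation for 8 mice in each of 3 groups, all of them female C57BL/6JRj mice. Young STD mice were 3 months old and lived in standard housing. Aged STD and aged ENR mice were 17 months old, and the aged ENR mice had spent 3 months in an enriched environment while the aged STD mice stayed in standard cages. The study used the design to ask what aging does to DNA methylation in this tissue and whether enrichment of old animals changes it. Each library came from micro-dissected tissue of mixed cell types, so a level between 0 and 100% can stand for a share of cells, of alleles or of molecules, and these cannot be told apart. The tissue label could not be checked against expression markers in a methylation table.

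CpG methylation is symmetric because the sequence reads the same on both strands. After replication, UHRF1 binds the half-methylated dyad and DNMT1 copies the mark onto the new strand, while DNMT3A and DNMT3B methylate without such a template and TET enzymes oxidize 5-methylcytosine to 5-hydroxymethylcytosine, which bisulfite does not separate from methylation and which is abundant in neurons. Bisulfite makes the strands non-complementary, so each read reports on 1 strand of 1 molecule, and the plus and minus values of a mouse came from different reads. A strand difference here is therefore a difference between samples of molecules and not a count of half-methylated dyads. RRBS cuts DNA with MspI at CCGG and sequences inward from the fragment ends, so the CG inside a CCGG is read on its plus strand from the fragment on its right and on its minus strand from the fragment on its left, or at the far end of a fragment short enough to be read through.

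The following sequences, from the GRCm38 reference and written along the plus strand, show the dyads on which the results turn. The first is a whole fragment between neighbouring MspI sites in an intron of Gm49306 (chr14:48054298-48054375), with the CCGG at each end in capitals, shown because the cytosine of each site that belongs to the far end of the fragment was measured as almost unmethylated while its partner was almost fully methylated. The second is a like fragment in the region of Gm35024 (chr9:79115234-79115312). The other windows have the CG of the dyad in capitals. They show a dyad near Gm4852 (chr1:47371595-47371624) and one in the promoter region of Zfhx2os (chr14:55053017-55053046), which differed between strands in every mouse away from a cut site, and one in an intron of Gm49692 whose nearest start site is that of Gm48668 (chr12:20233694-20233723), which lay near 50% on both strands.
Gm49306 fragment: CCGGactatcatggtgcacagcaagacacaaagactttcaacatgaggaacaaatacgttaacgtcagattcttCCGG
Gm35024 fragment: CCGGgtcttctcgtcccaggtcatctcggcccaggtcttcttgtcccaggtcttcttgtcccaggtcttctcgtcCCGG
Gm4852 dyad: cttttttttttcttCGttaattttcaaaat
Zfhx2os dyad: gaagtggaagagtaCGaaaaaaaaaagaaa
Gm48668 dyad: gtggggagatgaaaCGtcccttccggaggc

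The dyads lay mostly in short fragments of CpG-dense promoters. Of the 57037, 35812 (62.8%) were promoter dyads close to a start site, 3675 were exonic, 8032 were intronic and 9518 were intergenic. Among all autosomal CpG cytosines, 48.5% were in promoters by the same rule. A CCGG held 14603 of them (25.6%, against 34.4% of all autosomal CpG cytosines). At the 42434 other dyads, called internal dyads here, the MspI cuts on either side were a median of 102 bp apart, and both cuts were within 75 bp, the read length, at 99.89%. The members were therefore not a sample of all CpGs: a cytosine had a listed partner mainly where reads from both fragment ends reached it. The number of dyads with both strands ranged from 13114 to 45783 per mouse, and the mouse averages of the percentages at dyads ranged from 12.7% in aged STD replicate 5 to 30.2% in aged STD replicate 3 on the plus strand. The reads behind a percentage are known only to have been at least 10.

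Within a mouse the strands of most dyads had the same value, and most dyads were at an extreme. Per mouse, both strands were at exactly 0% in 62.9% ± 5.43 (SD, n = 24) of dyads and at exactly 100% in 11.9% ± 2.40. The mean absolute strand difference was 9.94 ± 0.503 percentage points in the young STD group, 9.47 ± 1.21 in the aged STD group and 8.71 ± 0.720 in the aged ENR group (SD, n = 8 each), and Pearson's r of the strands across dyads was between 0.745 and 0.899 in every mouse. The groups overlapped. Aged STD and young STD mice differed by -0.468 points (exact permutation test, p = 0.356), and by 1.74 points at the 65 dyads measured in all mice (exact permutation test, unadjusted p = 0.0412), the opposite direction. For enrichment, aged ENR minus aged STD, the difference was -0.762 points (exact permutation test, p = 0.148). None of the 18 group comparisons of mouse-level strand measures passed Benjamini-Hochberg adjustment (exact permutation tests, smallest adjusted p = 0.888). Aged STD replicate 5 had the lowest value of all mice, 7.17 points, and without it the ENR difference was -1.09 points (exact permutation test, unadjusted p = 0.0180). Leaving out single mice, this ENR difference ran from -1.09 to -0.534 points. The share of dyads whose strands differed by over 25 points was 15.3% ± 1.01 in the young STD group, 13.8% ± 2.27 in the aged STD group and 12.8% ± 1.41 in the aged ENR group. Without aged STD replicate 3, which had the highest share of all mice at 17.98%, the aging difference of this share was -2.06 percentage points (exact permutation test, unadjusted p = 0.00373), whereas at the 65 dyads measured in all mice it was 2.69 percentage points. Leaving out single mice, the aging difference of the share ran from -2.06 to -0.940 percentage points. Replicates 5 and 3 were picked out after their extreme values on the same measure were seen. The p-values without them therefore carry no weight as tests.

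**Figure D1:**
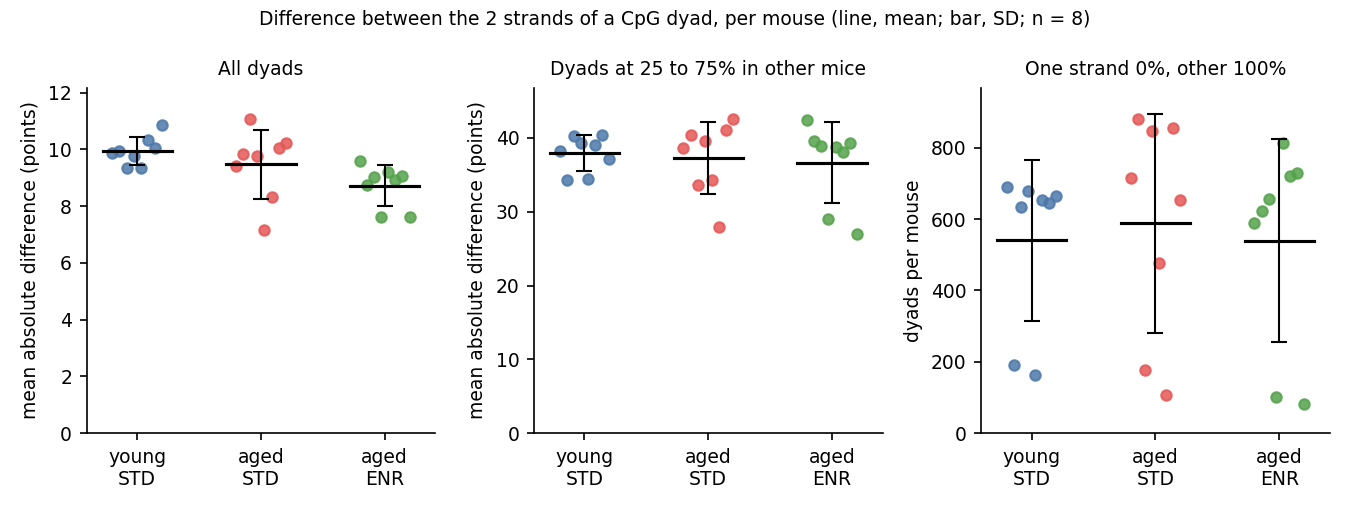
Strand difference per mouse in the 3 groups, 1 point per mouse with the mean (line) and SD (bar, n = 8). The left panel gives the mean absolute difference over all dyads, the middle panel the same for dyads at 25 to 75% in the other mice, and the right panel the number of dyads with 1 strand at 0% and the other at 100%; the groups overlap in all panels, and 2 mice of each group lie below 200 dyads in the right panel.

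Some dyads of a mouse were at opposite extremes, 0% on a strand and 100% on its partner. Between 83 and 881 dyads per mouse did so, which was 0.181 to 4.70% of its dyads. The mice did not spread evenly in this count. Young STD replicates 2 and 5, aged STD replicates 3 and 6 and aged ENR replicates 4 and 8 had 83 to 191 such dyads, aged STD replicate 5 had 477 and the other 17 mice had 589 to 881. Aged STD replicate 6 and aged ENR replicates 4 and 8 also had the most covered CpG cytosines of all mice, 587562 to 608017, whereas young STD replicate 2 and aged STD replicate 3 had 392940 and 383780, within the range of the other mice. Reads per CpG are not known here, and the number of covered CpG cytosines is the only measure of depth the table holds. Aged STD replicate 6 and aged ENR replicates 4 and 8 also had the lowest shares of such dyads and the lowest strand differences at intermediate dyads, described next, at 27.0 to 29.0 points against 33.6 to 42.6 in the other mice. Since they stood apart in covered cytosines, no correlation over all 24 mice is given. Across the other 21, a choice made after the data were seen, Pearson's r between covered cytosines and the share of such dyads was -0.488 (permutation p = 0.0260, 0.0520 after Benjamini-Hochberg adjustment over 2 relations) and Spearman's rho -0.488 (permutation p = 0.0265, adjusted 0.0530), and r was -0.377 when the 2 mice most distant from the median coverage were left out. With the strand difference at intermediate dyads r was -0.280 (permutation p = 0.218, adjusted 0.218) and rho -0.281 (permutation p = 0.217, adjusted 0.217), and r was -0.107 with the same 2 left out. These values describe the 21 mice and do not show that coverage and the strand difference are unrelated.

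The strand difference depended on the level of the dyad. The level was taken as the mean of both strands in the other mice, at least 5 of them, so that the values compared did not set the class. Dyads under 5% held 58.3% of the measurements and differed by 2.77 ± 0.224 points between strands (mean of 24 mice, SD). The difference was 15.1 ± 1.90 points at 5 to 25%, 37.3 ± 4.32 points at 25 to 75%, 17.9 ± 1.61 points at 75 to 95% and 7.10 ± 0.552 points above 95%. At dyads of 25 to 75%, called intermediate here, 55.2% ± 4.03 of measurements differed by over 25 points between the strands of the same mouse. Group means at intermediate dyads were 37.9 ± 2.43 points in the young STD group, 37.3 ± 4.92 in the aged STD group and 36.7 ± 5.50 in the aged ENR group. The aging difference was -0.644 points (exact permutation test, p = 0.756) and that for enrichment was -0.603 points (exact permutation test, p = 0.824), both smaller than the spread within groups. Intermediate dyads made up 2.76% of the measurements in promoters, where the mean level was 6.09% ± 0.918, against 19.5% in introns, 16.2% in intergenic sequence and 12.96% in exons.

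**Figure D2:**
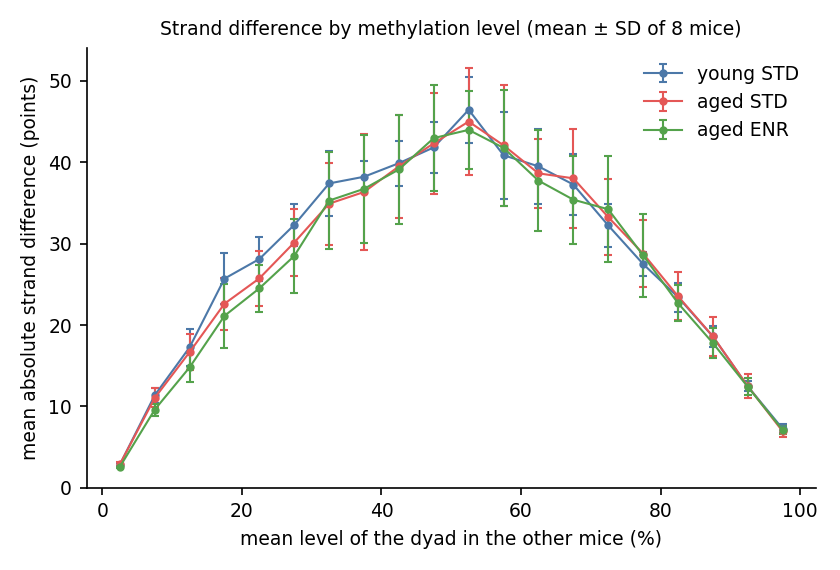
Mean absolute strand difference in percentage points against the level of the dyad in the other mice, in steps of 5 percentage points; points are means and bars SDs of the 8 mice of each group. The difference is lowest at the extremes of the level, 2.77 points under 5% and 7.10 points above 95%, and highest near 50%. Aged ENR mice have the lowest mean in each of the 6 bins under 30%, with SD bars apart from those of young STD mice in the 2 lowest bins, and this difference was not tested.

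Values at intermediate dyads were often at an end of the scale in a single mouse. In this class 50.3% ± 14.7 (SD, n = 24) of the strand values were exactly 0 or 100%, with a range over mice of 19.3 to 67.0%. Both strands were at the same end in 18.8% ± 7.68 and at opposite ends in 10.8% ± 5.71 of the dyads. A dyad that was intermediate on average was thus often fully methylated or unmethylated on a strand of 1 mouse. Where neither strand was at an end, they differed by 24.9 ± 1.63 points. Dyads measured on both strands in all 24 mice give examples. At the Gm48668 dyad (position 20233708 on chromosome 12), the plus strand averaged 53.4% ± 12.4 and the minus strand 54.9% ± 14.96, and the strands of a mouse differed by -36.1 to 28.8 points. At the intergenic dyad whose nearest start site is that of Dnajc13, a gene of endosomal trafficking (position 104266684 on chromosome 9), the strands averaged 44.3% ± 31.2 and 45.2% ± 29.9, nearly the same, while the difference within a mouse ran from -94.7 to 100 points, with the plus strand higher in 12 mice and the minus strand higher in 12.

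To place the strand difference on a scale, each strand was compared with the same and the other strand of other mice of the same group. At intermediate dyads the partner strand in the same mouse was 36.3 ± 4.38 points away, the partner strand in other mice 38.8 ± 1.54 points and the same strand in other mice 35.5 ± 1.20 points (SD, n = 24 mice). The partner was closer in the same mouse than in other mice in 22 of 24 mice, by 2.47 points on average. Against the same strand of other mice, the partner in the same mouse was closer in 7 of 24 mice and farther in the other 17, with means within 1 SD. Aged STD replicate 6 and aged ENR replicates 4 and 8 were among the 7, with 27.0, 27.96 and 26.1 points to the partner against 33.0, 33.3 and 33.0 points to the same strand of other mice. At internal dyads the same 3 values were 34.3, 36.7 and 35.3 points, and at CCGG dyads 40.5, 43.1 and 35.7 points. How a mouse deviated from the other mice was measured for each strand, and the r of the 2 strands' deviations across intermediate dyads was 0.0173 ± 0.0234 in the young STD group, 0.0260 ± 0.0351 in the aged STD group and 0.0134 ± 0.0174 in the aged ENR group. These correlations are descriptions across dyads of the same libraries, and no group difference was detected (exact permutation tests, p = 0.562 for aging and p = 0.374 for ENR).

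A neighbouring cytosine on the same strand behaved otherwise. At 36245 internal dyads, the nearest measured cytosine on each strand within 50 bp in the same fragment was taken, at a median distance of 6 bp. This comparison was added after the data were seen. At intermediate dyads, 384 to 1282 per mouse, the same-strand neighbour was 23.1 ± 1.46 points away, the partner cytosine 34.5 ± 4.61 points and the neighbour on the other strand 36.0 ± 4.11 points (SD, n = 24). The same-strand neighbour was closer than the partner in 24 of 24 mice, by 11.4 ± 3.49 points (sign-flip permutation test over mice, adjusted p = 1.5e-05, the smallest the flips can give after adjustment). The r of the deviations was 0.424 ± 0.0264 with the same-strand neighbour and 0.0215 ± 0.0428 with the partner, and was higher with the neighbour in 24 of 24 mice (sign-flip permutation test, adjusted p = 1.5e-05). The partner's r exceeded that of the other-strand neighbour by 0.0129 ± 0.0253, in 14 of 24 mice (sign-flip permutation test, adjusted p = 0.0185). Neighbours on a strand shared reads, and partners did not. The same-strand r was 0.434 ± 0.0211 in the young STD group, 0.425 ± 0.0333 in the aged STD group and 0.413 ± 0.0220 in the aged ENR group.

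**Figure D3:**
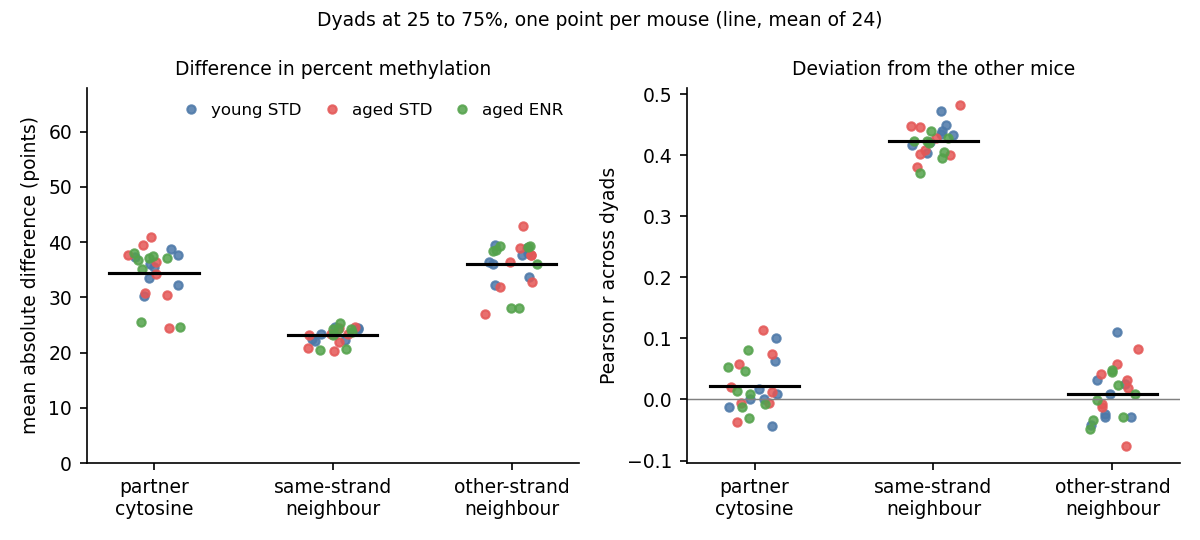
For each of the 24 mice, the mean absolute difference in percent methylation (left, percentage points) and the Pearson r of the deviations from the other mice (right) between a cytosine of an intermediate internal dyad and its partner, its nearest neighbour on the same strand or the neighbour on the other strand; lines are means of 24 mice. Same-strand neighbours sit at 20.3 to 25.4 points and at r of 0.371 to 0.483 in all mice, while r with the partner lies between -0.0430 and 0.114.

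The mean levels of the strands were close, at 22.2% on the plus and 22.3% on the minus strand. The plus strand was lower than the minus strand by a mean of -0.109 ± 0.196 points (plus minus minus, SD, n = 24; sign-flip permutation test, p = 0.0111) and was the higher in 7 of 24 mice. At 35805 dyads inside exactly 1 gene, the sense strand minus the antisense strand was -0.0667 ± 0.209 points (SD, n = 24; sign-flip permutation test, p = 0.134), with the sense strand higher in 12 mice. The values were similar at promoter dyads, with a level of 5.94% and a difference of -0.0673 points, and at intronic ones, with a level of 44.8% and a difference of -0.0726 points (sign-flip permutation tests, p = 0.0589 and p = 0.652).

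While the strands were close on average, single dyads differed in the same direction in nearly every mouse. The plus minus minus difference was tested with limma over all dyads with at least 3 mice in each group, and a dyad was called at an adjusted p under 0.05 and a mean difference over 25 points. Of 27660 dyads, 101 were called (0.365%), 41 with the plus strand higher (0.148%) and 60 with the minus strand higher (0.217%). With at least 5 mice in each group 5013 dyads were tested and 37 called. Called dyads had a median absolute difference of 78 points, with a range of 25.1 to 99.6. The direction was the same in all 3 groups at 101 of 101, and 75 had a single sign in every mouse measured. The call was made on the mean of this same difference over the 3 groups, so such agreement is largely built into it. They were not spread like the tested dyads: 53 were intergenic (52.5% against 18.1% of tested dyads), 28 promoter (27.7% against 62%), 12 intronic and 8 exonic, and 26.7% against 7.72% lay in soft-masked repeats. No dyad was called for an aging or an ENR change of the strand difference (limma, 0 of 27660 each, 0% of those tested, with 714 and 575 at an unadjusted p under 0.05).

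Most of the called dyads were at MspI sites, and mostly at 1 fragment length. At CCGG 81 of 6752 tested dyads were called (1.20%), and away from it 20 of 20908 (0.0957%). Of the 81, 66 had the neighbouring cut on a side exactly 74 or 75 bp away. Only 325 tested dyads had such a cut, so 20.3% of them were called, and 65 of the 66 had it on 1 side. At 65 of these 65 the strand with the lower value was the one whose cytosine ends the fragment of 74 or 75 bp. The remaining 1 had such a cut on both sides, so that either strand ends a fragment of this kind. Without the dyads of this kind, an exclusion chosen after the data were seen, 34 of 27335 dyads were called.

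The whole class of such dyads had the same pattern. For a cut 74 bp away, the cytosine at the far end of the fragment averaged 10.9% ± 2.29 and its partner 30.9% ± 5.32 over 247 dyads. For a cut 75 bp away the values were 9.83% ± 2.06 and 33.0% ± 3.43 over 338 dyads (SD, n = 24 mice). End minus partner was -3.09 ± 2.26 points for 60 to 73 bp (lower in 24 of 24 mice), -1.59 ± 1.32 points for 76 to 89 bp (22 of 24) and -0.0634 ± 0.251 points for 100 to 200 bp (12 of 24). There were 99 dyads at 73 bp and 77 at 76 bp, fewer than at either length between them. At 74 and 75 bp together the end cytosine was lower in 24 of 24 mice, with differences of -30.1 to -16.2 points per mouse. Where the partner was at least 80% methylated, 134 dyads, the end cytosine averaged 29.8% and was under 20% at 68 of them, whereas at 76 to 89 bp it averaged 91.7% at 338 dyads and was under 20% at 0. The difference was -22.4 ± 4.74 points in the young STD group, -23.1 ± 3.4 in the aged STD group and -20.0 ± 2.46 in the aged ENR group (aging, exact permutation test, p = 0.732; ENR, exact permutation test, p = 0.0542).

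**Figure D4:**
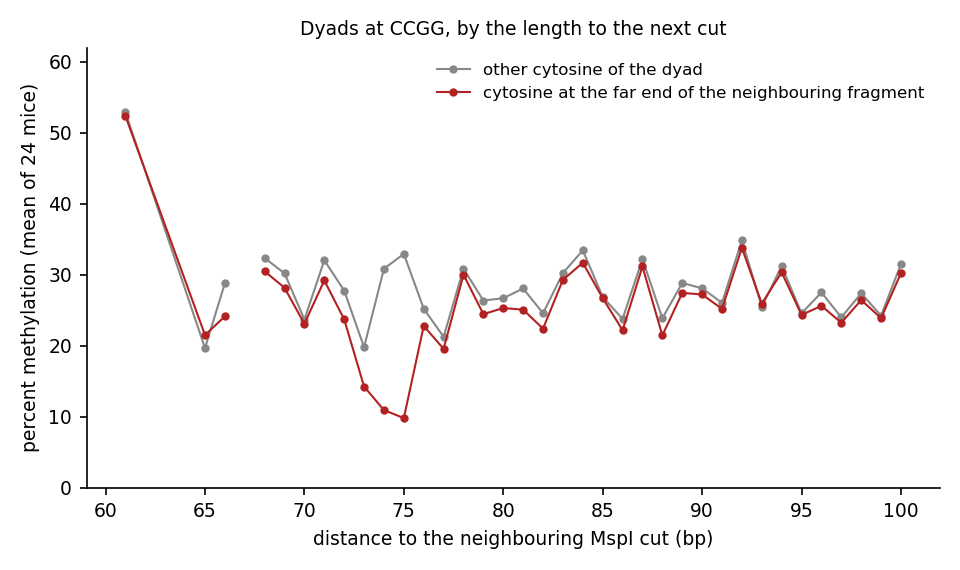
Percent methylation of the cytosines of CCGG dyads against the distance in bp to the neighbouring MspI cut, as means over 24 mice for lengths with at least 20 dyads; red is the cytosine at the far end of the neighbouring fragment and grey its partner. The widest gaps are at 74 and 75 bp, where the end cytosine is at 10.9 and 9.83% and its partner at 30.9 and 33.0%; the end cytosine also averages less than its partner at 60 to 73 bp (25.8 against 28.9%) and at 76 to 89 bp (26.0 against 27.6%).

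The preparation of RRBS libraries fills the recessed fragment ends with unmethylated cytosines at this same position, and the authors removed 2 bp from reads in which adapter was found. A read of 75 bp that ends at about the fragment end carries little or no adapter. Such a read, begun at the neighbouring cut, has the end cytosine as its last base when that cut is 74 bp away. When the cut is 75 bp away, the read stops just short of the end cytosine. How that cytosine was then read is not known here. Whether filled-in cytosines account for the values at 74 and 75 bp was not tested.

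Of the 6 dyads with the largest differences of a single sign in every mouse, among those with both strands in at least 12 mice, 5 had this geometry. With fewer mice, the called dyads near Stat4 (51981483 on chromosome 1, 10 mice, next cuts at 2796 and 73 bp) and AC159289.2 (94513982 on chromosome 17, 11 mice, a cut at 74 bp) differed by 99.4 and -95.3 points, more than the last 2 of these 6. At the fragment in the Gm49306 intron printed above, the left site (position 48054299 on chromosome 14) averaged 99.1% ± 2.63 on the plus and 2.85% ± 5.68 on the minus strand in 18 mice. The right site (48054373) averaged 2.99% ± 6.59 on the plus and 99.5% ± 1.65 on the minus strand in 18 mice. Each low cytosine was the one read at the far end of this fragment, and each high one was read from the fragment start on its own strand. In 24 fragments of 74 or 75 bp the dyads at both ends were called. Nearest to the start site of Dclre1a, which encodes a DNA repair nuclease, the plus strand was at 100% in 13 of 13 mice and the minus strand of the same mice at 0.452% ± 1.63 (position 56516527 on chromosome 19, intergenic). Over all 22 mice with a minus value, partner or not, its mean was 4.81% ± 15.8, with a highest value of 69.2% in the aged ENR group. Nearest to the start site of Ccna1, which encodes a germline cyclin, the strands averaged 99.1% ± 2.77 and 5.38% ± 7.84 in 17 mice (55019857 on chromosome 3, intergenic). Nearest to the start site of AC144733.1 they averaged 3.62% ± 6.43 and 98.1% ± 5.49 in 22 mice (65744818 on chromosome 13). In Abca12, a keratinocyte lipid transporter gene, an exonic and an intronic dyad 75 bp apart differed by 77.98 and -84.9 points (limma, SE 5.27 and 5.0). Near Gm39232 the strands averaged 2.86% ± 5.82 and 99.5% ± 1.91 in 14 mice at position 100992272 on chromosome 8, where the next cut was 23 bp away, and a called dyad of opposite sign lay 74 bp to its left beyond that cut.

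The called dyads had 57 nearest genes, of which 26 had 1 called dyad and 29 had 2. In 25 of the 29 both dyads had a cut 74 or 75 bp away, as in 4930509K18Rik, Abca12, AC144733.1, AC159289.2, Antxrl, Camk1g, Ccna1 and Dclre1a, the first in alphabetical order. The other 2 genes had more and were neighbours on chromosome 17, Gm26917 with 9 called of 90 tested dyads and Gm42418 with 8 of 17, both annotated as long intergenic noncoding RNA genes, where dyads were assigned to the nearest start site. All 17 lay inside the annotated Gm26917, and none had a cut at 74 or 75 bp. In 15 of 17 the minus strand was higher, and in 2 of Gm26917 the plus strand was, with means of 37.1 against 11.8% at position 39845005 and of 42.5 against 15.1% at 39845042. At 3 neighbouring dyads of Gm26917 (39844886, 39844890 and 39844893), the plus strand averaged 8.21, 2.25 and 4.11% and the minus strand 52.5, 42.0 and 67.0% in 23 mice. In Gm42418 7 dyads between 39846203 and 39846234 had plus values of 3.62 to 19.2% and minus values of 33.4 to 58.2%. At 71 of the 90 tested dyads of Gm26917 the minus strand was the higher, with a median difference of -7.20 points, and at 12 of the 17 of Gm42418, with a median of -18.8 points. None of the 17 called dyads was soft-masked.

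Away from CCGG and outside both of these genes, 8 dyads were called, and 2 loci with such dyads were chosen for description after their values were seen. Near Gm4852, a processed pseudogene, the dyad at 47371609 on chromosome 1 had a plus value of 99.95% ± 0.181 and a minus value of 8.87% ± 9.22 in 24 mice (SD). Its minus strand ranged from 3.39 to 36.5% in the young STD group, from 0.775 to 25.6% in the aged STD group and from 0 to 9.47% in the aged ENR group, and its plus strand was at 99.3% or above in every mouse, so strands never overlapped. The neighbouring dyad at 47371632 averaged 99.95 and 13.9%. In the promoter region of Zfhx2os, an antisense gene of a zinc finger homeobox gene, the dyad at 55053031 on chromosome 14 was at 100% on the minus strand in 23 of 23 mice and at 8.87% ± 5.22 on the plus strand, and the dyad at 55053015 averaged 14.8 and 84.97%. As the sequences above show, both windows hold runs of a single base, and both dyads lie in soft-masked repeats.

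MspI-site dyads differed more between strands than internal ones also without the dyads of 74 or 75 bp. In the intermediate class the strands of CCGG dyads were 40.6 ± 4.15 points apart and those of internal dyads 35.4 ± 4.63 points, a difference of 5.17 ± 1.90 points that was positive in 24 of 24 mice (sign-flip permutation test over mice, p = 1e-05, the smallest the flips can give). Without a cut at 74 or 75 bp, CCGG dyads were 37.8 ± 4.02 points apart, 2.37 points more than internal dyads, in 22 of 24 mice (sign-flip permutation test, p = 1e-05). Over all levels the values were 15.9 and 7.21 points, beside mean levels of 33.2% and 18.6%. At internal dyads with a cut 1 to 10 bp away, 22 to 58 intermediate dyads per mouse, the cytosine read near the start of its read was higher than its partner by 3.50 ± 5.95 points, in 19 of 24 mice (sign-flip permutation test, adjusted p = 0.0443 over 5 distance bins). In the other 4 bins the means were between -0.501 and -0.0417 points (sign-flip permutation tests, smallest adjusted p = 0.640).

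The partner strand gives a further reading of each group difference at the same CpG, from other reads of the same groups. The group means of a strand used every mouse with a value on it, so the mice behind the strands could differ. Per mouse, 47.8% ± 13.8 (SD, n = 24) of the measured dyads had a value on 1 strand only. Among member cytosines, 6539 (5.73%) had group means more than 25 points apart between aged STD and young STD mice, against 9.16% of all CpG cytosines. Their own mean difference was 36.3 points. Their partners differed by 0.690 points in the same direction on average, with 3057 (46.8%) of the same sign, 2879 (44.0%) of the opposite sign and 603 (9.22%) at 0. This mean of the partners is signed, so partners of opposite sign cancelled in it, and it does not mean that single partners were unchanged. Both strands passed 25 points in the same direction at 346 dyads, 10.5% of those passing on the plus and 10.6% of those passing on the minus strand, and in opposite directions at 315. Of the 346, 119 were higher and 227 lower in aged STD mice, beside 4.15% of all CpG cytosines that were higher and 5.01% that were lower by this size.

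The comparison of aged ENR with aged STD mice, which shares the aged STD mice with the aging comparison, gave 5534 member cytosines (4.85%, against 8.33% of all CpG cytosines). Their own mean absolute difference was 35.6 points. The signed mean of their partners, counted in the same direction, was 0.409 points, with 47.0% of partners of the same and 45.4% of the opposite sign, which cancelled in it. Both strands passed in the same direction at 266 dyads, 111 higher and 155 lower in ENR, and in opposite directions at 249. Of all CpG cytosines, 3.82% were higher and 4.51% lower by this size. Across the 57037 dyads, r between the plus and minus differences was 0.0198 for aging and 0.00635 for ENR, a description over dyads that share libraries. At CCGG dyads r was 0.0157 and 0.0247, and at internal dyads 0.0233 and -0.0112. With both strands in at least 12 mice, 67 dyads passed in the same and 59 in opposite directions for aging, and 44 and 45 for ENR.

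**Figure D5:**
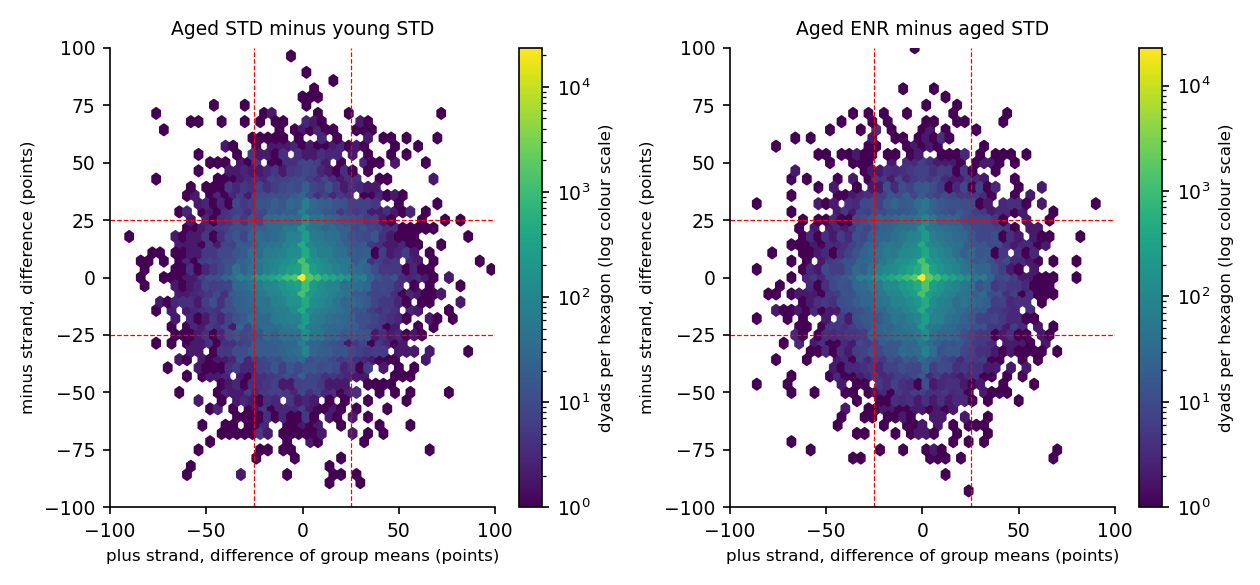
Difference between group means on the minus strand against that on the plus strand, in percentage points, for aging (aged STD minus young STD) and for ENR (aged ENR minus aged STD), over the dyads. Dyads passing 25 points in the same direction number 346 for aging and 266 for ENR, beside 315 and 249 in opposite directions, and r across dyads is 0.0198 and 0.00635.

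In the fit over all 694379 CpG cytosines, 35 were called for aging (limma, adjusted p under 0.05 and over 25 points, 0.00504%) and 44 for ENR (0.00634%). Member cytosines made up 5 of the aging calls (0.00438% of members) and 2 of the ENR calls (0.00175%), and none was called with at least 5 mice per group (limma, 1003 and 752 member cytosines at an unadjusted p under 0.05). At 5 of 5 aging calls the partner difference had the opposite sign, but none of these partner differences passed the test (limma, adjusted p = 1 at each and unadjusted p = 0.228 to 0.596). Of the 2 ENR calls, the partner difference had the opposite sign at 1 and the same sign at Slc19a2, where it was -5.64 points (limma, adjusted p = 1, unadjusted p = 0.784). In an intron of Slc19a2, a thiamine transporter gene, the plus strand at 164250391 on chromosome 1 was at 0.625% ± 1.25 in 4 young STD mice, 78.2% ± 25.2 in 4 aged STD mice and 0.926% ± 2.27 in 6 aged ENR mice (limma, adjusted p = 0.0411 for aging and 0.0217 for ENR). Its partner was at 34.2% ± 43.9 in 5, 14.8% ± 25.7 in 3 and 9.18% ± 18.5 in 7 mice, with values from 0 to 97.1% in young mice. The plus strand rose and fell with the groups while the partner's groups overlapped. Near Dusp6, which encodes an ERK phosphatase, the plus difference was -91.3 points and the partner's 19.4. Near Arl14, a small GTPase gene, the minus difference was 94.6 and the partner's -6.35, and near Vmn2r-ps60, a pheromone receptor pseudogene, they were -91.0 and 14.8. In the promoter of Mpst, an enzyme of sulfur metabolism, they were -41.2 and 7.50 points. When the strands of a dyad were averaged before the fit, no dyad was called (limma, 0 of 27660 each, with 819 and 628 at an unadjusted p under 0.05).

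The dyads that passed 25 points on both strands and were measured in most mice were chosen by the contrast, so no separate test of them is given. Near Gm10042 (153770645 on chromosome 3) the plus strand averaged 40.98% in 7 young STD mice, 3.404% in 5 aged STD mice and 1.19% in 6 aged ENR mice, and the minus strand 38.6, 0.566 and 8.95%. Single young mice ranged from 0 to 100% on both strands, and aged STD mice reached 17.0%, so the groups overlapped at 0. Near Prok1, which encodes a prokineticin ligand, the aging differences were 27.9 points on the plus and 41.5 on the minus strand, and near Gm19965 25.4 and 37.2 points. For ENR, the values were -30.5 and -34.4 points near Gm29791, -28.3 and -26.4 near Gm26436, and -30.1 and -43.3 at the dyad nearest to Gm27970, in an intron of Prune2. At Gm29791 the plus strand averaged 65.3% in the young STD group, 53.98% in the aged STD group and 23.5% in the aged ENR group, with values at 0 in each group. None of these strand values passed limma over all CpGs (adjusted p = 1 for each). The CpGs in Tiam1, Tshz2 and Cux2 that the study singled out had a row on the minus strand alone, so their partners were not listed and could not be compared.

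Imprinted control regions carry methylation on 1 parental allele. Of 20 listed imprinted genes, 11 had dyads within 2 kb of the start site, 46 dyads in at least 5 mice, and 27 (58.7%) were at 25 to 75%, against 8.28% of all 56106 dyads with as many mice. These were in Plagl1 (6 of 15 dyads), Zrsr1 (5 of 6), Mcts2 (4 of 4), Nap1l5 (4 of 4), Peg13 (3 of 3), Grb10 (2 of 4), Airn, Nespas and Sgce (1 of 1 each), while Inpp5f (0 of 5) and Rasgrf1 (0 of 2) had none. At Nap1l5 the strands averaged 49.4 and 35.1%, and at Zrsr1 35.05 and 37.3%. Strands of imprinted intermediate dyads were 37.0 ± 12.4 points apart per mouse, on 3 to 22 dyads, and those of other intermediate dyads 37.3 ± 4.33 points. Single mice ranged from 0 to 100% on the plus strand at Nap1l5, Zrsr1, Mcts2 and Peg13.

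Genes of the methylation machinery had 49 dyads in at least 5 mice by nearest start site, 4 of them intermediate (8.16%). The dyads of Dnmt1, the maintenance methyltransferase, averaged 88.5% over 5 dyads, and those of Uhrf1, its recruiter, 5.56% over 3. The de novo enzyme genes Dnmt3a and Dnmt3b averaged 80.3% at 1 dyad and 0% at 5. The oxidase genes Tet1, Tet2 and Tet3 averaged 19.4, 27.6 and 12.8% over 5, 6 and 9 dyads. Tdg, a base excision gene, was at 94.9% at 1 dyad, the methyl-binding genes Mbd1, Mbd2 and Mbd4 averaged 0.163, 10.05 and 4.88%, and Mbd3 had no dyad.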

How the data were processed

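RRBS libraries of the dentate gyrus of 24 mice were sequenced by the authors as single-end reads of 75 bp. Per the labels' processing notes, the tools were Trim Galore 0.4.0, cutadapt 1.8.1, Bismark 0.16.1 and methylKit 1.5.2 with build mm10 (GRCm38); the study's methods name other releases of some. The deposited values are percent methylation per CpG cytosine and mouse, from cytosines with at least 10 reads and below an upper limit on coverage, listed where at least 3 mice per group had a value. The read numbers are not known here, so no interval or read-level test was made. Missing values were left out and none was imputed.

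Dyads were built from the table and annotated with GENCODE M21 and the GRCm38 sequence. Mouse-level measures were compared by two-sided exact permutation tests over 12870 relabelings, with Benjamini-Hochberg adjustment over 18 comparisons, and within-mouse contrasts by 100000 two-sided sign flips over mice. Fits across dyads or CpGs used limma 3.58.1 in R 4.3.3 on group means, with the prior spread estimated from rows of non-zero spread (23.0% of dyads had none) and Benjamini-Hochberg adjustment, in place of the study's read-level test. A simulated strand difference of 40 points was recovered at 171 of 200 dyads, and a simulated aging change of that size at 97 of 200. Python 3.11.15 with scipy 1.17.1 was used otherwise. Alternatives were other thresholds, classes and mouse minimums, an arcsine scale, a replicate block and leaving mice out.

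Members, gene lists and tests were chosen with earlier results of these data known. The dyads named were the 6 with the largest difference of 1 sign in every mouse among dyads with at least 12 mice and 3 per group, the 3 nearest 50% in all 24 mice, and the 3 per contrast that passed 25 points on both strands in most mice. Chromosome 18 dyads were counted but are not named. Libraries were taken as separate mice, as the study describes.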

Additional observations from a re-analysis of the deposited data

Results flagged for a closer look

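In 78 groups of 8 or fewer mice the mouse farthest from the others was tested for its distance from the rest, and 14 stood apart; chance flags about 1 in 20 groups. The share of intermediate dyads with strands over 25 points apart was 45.1% in aged STD replicate 6, against a group median of 55.5%. Of the 13 single-dyad values, 9 were at MspI-site dyads where most mice of the group were at a difference of exactly 100 or -100 points, so that a small departure stood apart. These were 94.1 points at Dclre1a in aged STD replicate 6, -92.9 and -83.3 points at Gm39232 in young STD replicate 5 and aged STD replicate 8, and -94.6 and -76.8 points at Gm49306 (48054373) in aged STD replicate 6 and aged ENR replicate 8. The others were 85.7 and 88.6 points at Gm49306 (48054299) in young STD replicate 1 and aged STD replicate 6, -96.1 points at AC144733.1 in aged STD replicate 6, and 92.3 points at Ccna1 in aged ENR replicate 4. Away from these, the strand difference was 63.5 points at Gm4852 in young STD replicate 5 (median 88.5), 17.0 points at Gm10042 in aged STD replicate 1 (median 0), 100 points at the Gm27970 dyad in aged STD replicate 4 (median -0.505) and -73.9 points at Zfhx2os in young STD replicate 3 (median -91.5).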

How the results depend on the processing

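Over all results and alternatives, 216 values kept their direction and side of the threshold, 21 counts or values moved, 16 reversed and 2 passed the threshold. With the 65 dyads measured in all mice, the aging difference of the mean absolute strand difference was 1.74 points (exact permutation test, unadjusted p = 0.0412) and that of the share over 25 points 2.69 percentage points. Leaving out single mice, the ENR difference of the mean absolute difference ran from -1.09 (without aged STD replicate 5) to -0.534 points and the aging difference of the share from -2.06 (without aged STD replicate 3) to -0.940 percentage points. At intermediate dyads the aging difference ran from -1.40 to 0.691 points (without aged STD replicate 6) and the ENR difference from -1.94 to 0.772 points (without aged ENR replicate 8), also turning without aged STD replicate 8 or aged ENR replicate 4. With a class of 40 to 60% the aging difference was 0.0223 points. Without CCGG dyads the ENR difference of the strands' shared deviation was 0.00192. The ENR difference of sense minus antisense was 0.0836 points with at least 12 mice, 0.0594 without CCGG dyads, and -0.0798 to 0.0340 leaving out single mice. The partner in the same mouse was closer than in other mice by a difference of -2.47 points in the intermediate class. Causes of these changes were not tested.

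Consistent strand differences numbered 37 with at least 5 mice per group, 44 with the replicate block, 20 without CCGG dyads and 34 without dyads of 74 or 75 bp. Dyads passing on both strands in the same direction numbered, for aging and ENR, 2739 and 2391 at 10 points, 11 and 5 at 50 points, 29 and 18 with at least 5 mice per group, 200 and 148 with the replicate block, and 624 and 449 by the mean of both strands. Calls of member cytosines by limma fell to 0 with at least 5 mice per group, with the replicate block and by the mean of both strands; fewer CpGs or mice enter the first 2 of these. The replicate numbers did not pair the mice (mean r of same-numbered mice 0.0041, -0.139 to 0.166 over 24 pairs, 2 over 0.1), and the block dropped 15390 dyads.

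Reads per CpG are not known, so sampling noise in a percentage cannot be separated from differences between strands. Dyads were measured mainly in short fragments of CpG-dense sequence.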
